A study of Drosophila melanogaster with 16 samples.

Results

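The cytoplasmic RNA of OSS cells, a culture line of follicle cells from the Drosophila melanogaster ovary, was compared between siRNA against the Paf1 gene (siPAF1) and siRNA against GFP, the negative control (siGFP). The comparison takes every library that the labels give to these groups in the cytoplasm fraction (cyto): 2 siPAF1 and 2 siGFP libraries, 4 of the 16 of the series. In all groups 500 pmol of siRNA were electroporated into a 10 cm plate, the cells were grown for 6 days, and total RNA of a cytoplasm lysate was made into strand-specific libraries. Cells with siRNA against piwi (siPIWI) and with both siRNAs (the double knockdown), in cyto, and a pellet that the labels call NUN without spelling it out, give the values set beside this comparison. The 2 libraries of a group are numbered OSS_146 and OSS_147. The labels do not say whether these numbers are separate cultures, so p-values measure only the spread between these libraries.

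Paf1 is a scaffold subunit of the Paf1 complex, which rides on elongating RNA polymerase II together with Ctr9, Cdc73, Leo1 and Rtf1. The complex is known for promoting transcription through chromatin, for the histone H2B ubiquitylation that Bre1 places during elongation, and for the 3′ end formation of mRNAs. In fission yeast it also limits silencing by small RNAs. Follicle cells of the ovary silence transposons through nuclear Piwi and its piRNAs, and the study put the siRNAs against Paf1 and piwi into the same cells.

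Sense counts on coding sequences came to 1131958 and 859335 in the siGFP libraries OSS_146 and OSS_147 and to 1658253 and 945610 in the siPAF1 libraries, over 7416 to 8110 genes with a count. Ribosomal protein mRNAs took 55.3% to 61.4% of the counts and transcripts enriched in the pellet 0.194% to 0.323%. The siGFP library OSS_146 stood apart: its TMM scaling factor was 0.649, the lowest of the 8 cyto libraries and against 0.901 to 1.07 in the other 3, and its 20 genes of highest count took 45.8% of its reads. Levels are given as CPM on TMM-scaled library sizes in the order OSS_146, OSS_147, and differences are log2 values of siPAF1 minus siGFP with their SE from edgeR.

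The targeted mRNA, listed as atms (chromosome 3R, 601323 to 603213), was measured first. Its level in the control was 166.7 and 171.5 CPM (122 and 132 counts). With siPAF1 it was 10.7 and 5.96 CPM (17 and 6 counts). It fell by 4.28 ± 0.48 on the log2 scale, to 4.94% of the control (edgeR adjusted p = 5.87e-05). It was also at 11.7 and 9.64 CPM in the double knockdown, so all 4 libraries with the siRNA stood below the 4 without it. In bulk RNA, fewer cells with a transcript and less of it per cell cannot be told apart. The mRNA of piwi, which this siRNA does not aim at, was at 288.3 and 307.9 CPM with siGFP and at 250.8 and 344.9 CPM with siPAF1, a difference of -0.003 ± 0.47 with overlapping groups.

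The mRNAs of the other 4 subunits of the Paf1 complex differed by less than their error allowed to call. Atu, the Leo1 subunit, was at 43.7 and 52.0 CPM with siGFP and 52.4 and 53.7 CPM with siPAF1 (0.15 ± 0.41). CG2469, the Ctr9 subunit, was at 108.0 and 116.9 CPM against 92.2 and 101.4 CPM (-0.22 ± 0.45). In both genes the siPAF1 and siGFP levels lay close together, although the libraries did not overlap. For hyx, the Cdc73 subunit, the levels were 17.8 and 19.5 CPM with siGFP and 24.6 and 29.8 CPM with siPAF1 (0.54 ± 0.51). Rtf1 stood at 5.47 and 5.20 CPM with siGFP and 12 and 10.9 CPM with siPAF1 (1.10 ± 0.80). The lowest edgeR adjusted p of these 4 was 0.679, for Rtf1. The intervals are wide, and the data do not show that the partner mRNAs stayed at the same level.

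Of 5714 genes tested in cyto, 6 fell and 0 rose with siPAF1, which is 0.105% of the genes tested (edgeR, adjusted p under 0.05). At an unadjusted p under 0.05 there were 329 lower genes, 5.76% of those tested, and 224 higher ones, 3.92%. The DESeq2 Wald test called 37 lower and 1 higher, with 4 of the 6 among them. It gave no adjusted p to CG3457 and CG11158, at -3.65 and -3.22, so they are not shown to fail it. The median difference over all genes was 0.04, with -0.44 at the lower quartile and 0.51 at the upper. The groups did not overlap in CPM in 2833 genes, 49.6% of those tested, 1317 of them lower (23%) and 1516 higher (26.5%), so non-overlap alone says little with 2 libraries against 2. The smallest p an exact permutation test can give here is 0.333. Apart from atms, the genes that fell were CG42259, Rab27, CG13373, CG3457 and CG11158. All 5 lie on the X chromosome.

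CG42259 (X, 940257 to 941042) was at 377.2 and 175.4 CPM with siGFP and at 48.6 and 33.8 CPM with siPAF1. It fell by 2.73 ± 0.50, a 6.7-fold lower level (edgeR adjusted p = 0.0258). The siGFP library OSS_146 was the highest, well above siGFP OSS_147, and both siPAF1 libraries lay below every other library but those of the double knockdown.

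Rab27 (X, 1367917 to 1370963) encodes a small GTPase that directs secretory vesicles to the plasma membrane. Its level was 129.8 and 68.8 CPM with siGFP and 18.9 and 12.9 CPM with siPAF1. It fell by 2.61 ± 0.48, or 6.23-fold (edgeR adjusted p = 0.0258). The siGFP library OSS_146 was again the highest.

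CG13373 (X, 371021 to 372224) was at 194.1 and 113.0 CPM with siGFP and at 24.6 and 24.9 CPM with siPAF1. It fell by 2.63 ± 0.51, or 6.2-fold (edgeR adjusted p = 0.0332). Both siPAF1 libraries gave nearly one level, and both siGFP libraries lay far above it.

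CG3457 and CG11158 have under 20 counts on average and were named after their values were seen, because they complete the 6. CG3457 (X, 2081855 to 2082748) was at 57.4 and 28.6 CPM in the control (42 and 22 counts) and at 3.16 and 3.98 CPM in the knockdown (5 and 4 counts). It fell by 3.57 ± 0.63, or 12-fold (edgeR adjusted p = 0.0258). CG11158 (X, 13576941 to 13578649) was at 43.7 and 37.7 CPM in the control (32 and 29 counts) and at 5.69 and 2.98 CPM in the knockdown (9 and 3 counts). It fell by 3.14 ± 0.61, or 9.39-fold (edgeR adjusted p = 0.0332). Its siGFP libraries lay close together, unlike those of CG42259 and Rab27.

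**Figure D1:**
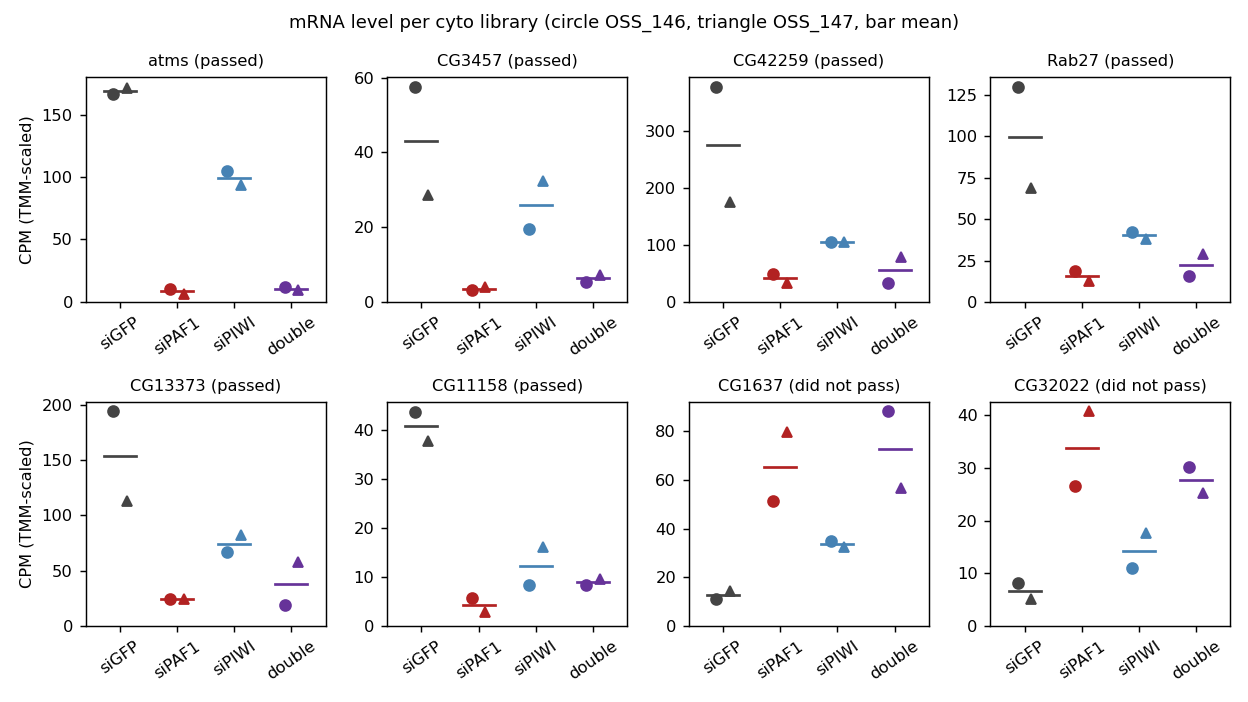
Level in CPM (TMM-scaled, axes from 0) of the 6 genes that fell and of CG1637 and CG32022, which did not pass, in each of the 8 cyto libraries. Circles are OSS_146, triangles OSS_147 and bars group means. For atms the siPIWI libraries lie at 104.6 and 93.9 CPM, and for CG42259, Rab27 and CG13373 the siPIWI libraries lie between siGFP and siPAF1.

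Without the siGFP library OSS_146 atms alone passed, and likewise without either siPAF1 library; without the siGFP library OSS_147, 9 genes passed, all lower. Without OSS_146 of siGFP the difference was -2.09 for CG42259, -2.10 for Rab27, -2.20 for CG13373, -3.0 for CG3457 and -3.05 for CG11158, each with an edgeR adjusted p of 0.823. The sign held in each, and the size moved less for CG11158 than for CG42259. The difference of atms without that library was -4.31.

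The siPIWI libraries add a comparison with another active siRNA, and they are themselves a knockdown. In CG42259 they stood at 105.2 and 105.6 CPM, in Rab27 at 42.2 and 38.2 CPM, in CG13373 at 66.9 and 82.2 CPM, in CG3457 at 19.5 and 32.3 CPM and in CG11158 at 8.44 and 16.1 CPM. They were thus above both siPAF1 libraries in all 5, and below both siGFP libraries in 4. In CG3457, 1 siPIWI library was above the lower siGFP library. The 5 genes were called on the siGFP and siPAF1 values, and that choice favours such an order. Against siPIWI, siPAF1 was lower by -1.34 ± 0.49 in CG42259, -1.31 ± 0.48 in Rab27 and -1.58 ± 0.50 in CG13373. Of 5714 genes 1 passed in that comparison, atms (0.0175%), at -3.51 ± 0.48. The siPIWI and siPAF1 differences from siGFP share its 2 libraries, and siPIWI stood -1.39 from siGFP in CG42259, -1.30 in Rab27 and -1.05 in CG13373. Over all genes tested, siPIWI against siGFP had 0 called and 864 (15.1%) at an unadjusted edgeR p under 0.05. For siPAF1 against siGFP the number at that p was 553 (9.68%).

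A further 20 genes with at least 20 counts on average, no overlap between the groups and the lowest p are given as values that did not pass, with edgeR adjusted p from 0.0553 to 0.135. Only 2 of them were higher with siPAF1. CG1637 (X, 10767933 to 10771840) was at 10.9 and 14.3 CPM with siGFP and 51.2 and 79.5 CPM with siPAF1, a difference of 2.35 ± 0.49 (edgeR adjusted p = 0.0553). Its 3′ untranslated window, of 655 bases in every library, stood at 201 and 170 CPM with siGFP and at 432 and 373 CPM with siPAF1. The coding sequence and the 3′ window thus put the same libraries above the others. Of the 20, 5 had a 3′ window of equal length in the 4 libraries and at least 20 counts in it over these libraries together. In CG32022, pug and O-fut2 this window likewise had the sign of the coding sequence with no overlap. In CG31998, lower on the coding sequence, the 3′ window overlapped, at 6.83 and 2.60 CPM with siGFP against 4.42 and 7.95 CPM with siPAF1. CG32022 (3L, 8713380 to 8714372) was at 8.20 and 5.20 CPM with siGFP and at 26.5 and 40.8 CPM with siPAF1, a difference of 2.30 ± 0.58 (edgeR adjusted p = 0.135).

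The other 18 were lower with siPAF1, by -2.89 to -1.68, and several have known roles. Among the genes of DNA and cell division, mus308 (3R), which encodes DNA polymerase theta of end-joining repair, was at 38.3 and 50.7 CPM with siGFP and 8.21 and 6.96 CPM with siPAF1 (-2.52 ± 0.59). Cp110 (X), a protein that caps centrioles, was at 57.4 and 42.9 against 12 and 10.9 CPM (-2.11 ± 0.47). In both genes the 2 siPAF1 libraries lay close together. The augmin subunit msd1 (3L), which helps to nucleate spindle microtubules, was at 725.6 and 242.9 against 116.2 and 77.5 CPM (-2.31 ± 0.52). Its siGFP libraries lay far apart.

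Of those with roles in metabolism and signalling, pug (3R), an enzyme of folate metabolism, was at 198.1 and 158.5 CPM with siGFP and 56.2 and 54.7 CPM with siPAF1 (-1.68 ± 0.41). CG30410 (2R), which a later annotation names Rpi, was at 302.0 and 135.1 against 68.2 and 37.8 CPM (-2.03 ± 0.49). The fucosyltransferase gene O-fut2 (X), whose product modifies thrombospondin repeats, was at 636.8 and 285.8 against 145.3 and 95.4 CPM (-1.93 ± 0.48). In CG30410 and O-fut2 the siGFP library OSS_146 was far above OSS_147, and in pug they lay closer. CCKLR-17D1 (X), a receptor of cholecystokinin-like peptides, was at 159.9 and 93.5 against 34.8 and 27.8 CPM (-2.01 ± 0.44).

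Of the genes for which no role is stated here, dtr (2L, 21361216 to 21367290) was at 60.1 and 74.0 CPM with siGFP and 15.2 and 14.9 CPM with siPAF1, -2.15 ± 0.45 (edgeR adjusted p = 0.0553). In it siGFP OSS_147 was above OSS_146. CG31998 (chromosome 4, 218171 to 226564) was at 73.8 and 101.3 against 24.01 and 21.9 CPM (-1.92 ± 0.48). CG2656 (3R) was at 187.2 and 84.4 against 29.1 and 28.8 CPM (-2.22 ± 0.48). The remaining 8, which are CG15912, CG14798, CG3740 and CG3021 on X, CG32187 and CG43295 on 3L, CG8021 on 3R and CG9961 on 2L, differed by -2.89 (CG14798) to -1.83 (CG8021).

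Among the 21 lower genes apart from atms that have at least 20 counts, siGFP OSS_146 was above siGFP OSS_147 in 18, and the median ratio of these libraries was 1.61, against 1.04 over all genes tested. Both siPIWI libraries lay below both siGFP libraries in 16 of the 21. They lay between the siGFP and the siPAF1 libraries in 14. The same siGFP and siPAF1 values picked these genes, which favours both counts, and the shares over all genes tested were not counted. The part of the siGFP library OSS_146 in these differences was not tested beyond leaving it out.

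The same siRNA in another background gives a comparison with no library in common: the double knockdown against siPIWI. Its libraries were less alike in their share of transcripts enriched in the pellet. That share was 1.17% and 0.225% with siPIWI and 0.714% and 0.225% in the double knockdown. Their TMM factors were 1.35 and 1.03 with siPIWI and 1.37 and 0.869 in the double knockdown. The part of these shares in the comparison was not tested. In this comparison 1 of 5714 genes passed, 0.0175%, which was atms (-3.18 ± 0.46), and 149 genes had an unadjusted edgeR p under 0.05. All 21 lower genes apart from atms were lower in it too, where 53.8% of all genes tested were, with a median of -0.93 against -0.05 over all genes. This counts signs only, as the values ranged from -1.32 ± 0.44 in dtr to -0.07 ± 0.42 in pug. In CG32187, O-fut2 and CG14798 too the value was smaller than its SE. For pug, siPIWI minus siGFP was -1.69 ± 0.42, near its siPAF1 minus siGFP value of -1.68. Both higher genes were higher, CG1637 at 88.1 and 56.6 CPM in the double knockdown against 35.1 and 32.3 CPM in siPIWI (1.11 ± 0.43) and CG32022 at 30.1 and 25.3 against 11.04 and 17.6 CPM (1.01 ± 0.51). Both double knockdown libraries lay below both siPIWI libraries in 12 of the 21. The share of all genes tested that did so was not counted, so the 12 are not read further. Of the larger set of 328 genes with an unadjusted p under 0.05 and lower in siPAF1, 251 were lower (76.5%, median -0.31), and of the 224 higher ones 154 were higher (median 0.21).

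In the second background the differences of the called genes were smaller. They were called on siPAF1 minus siGFP, and that choice by itself favours smaller values in a comparison not used for it. CG3457 was at 5.43 and 7.23 CPM in the double knockdown against 19.5 and 32.3 CPM with siPIWI (-2.03). CG42259 was at 33.4 and 79.6 against 105.2 and 105.6 CPM (-0.94 ± 0.48), and Rab27 at 15.4 and 28.9 against 42.2 and 38.2 CPM (-0.92 ± 0.47). These levels do not overlap, but none of these genes passed. CG13373 was at 19.2 and 57.8 against 66.9 and 82.2 CPM (-1.01 ± 0.49). CG11158 was at 8.35 and 9.64 against 8.44 and 16.1 CPM (-0.39), levels that overlap. The test of the difference between both backgrounds called 0 of 5714 genes (0%) with edgeR and 0 with DESeq2, with 156 at an unadjusted edgeR p under 0.05. For CG11158 that difference was -2.75 ± 0.86 and for CG42259 -1.79 ± 0.68, with an edgeR adjusted p of 0.969 in both. Averaged over both backgrounds, a contrast chosen after seeing the data, 10 genes were called lower and CG1637 alone higher.

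**Figure D2:**
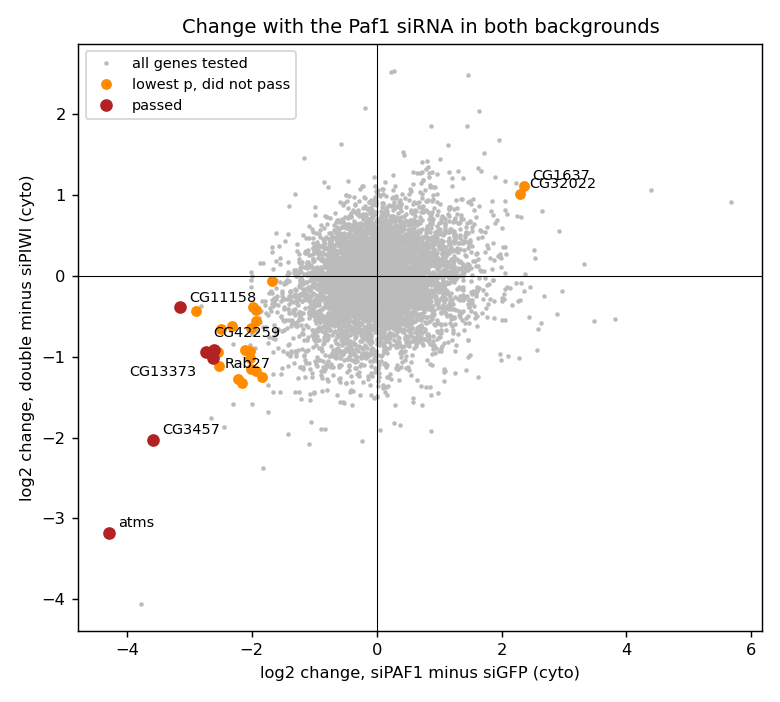
Log2 change of each of the 5714 genes in siPAF1 minus siGFP (x axis) and in the double knockdown minus siPIWI (y axis), which share no library. Red points are the 6 genes that fell in the first comparison and orange points the 20 that did not pass. All red and orange points left of 0 lie below 0, and the 2 at the right lie above it.

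In the NUN pellet, siPAF1 against siGFP called 0 of 8232 genes (0%) with edgeR, with 840 at an unadjusted p under 0.05. Rab27 was at 53.6 and 20.9 CPM with siGFP and 7.45 and 6.55 CPM with siPAF1 there, -2.40 ± 0.52, close to its cyto value. CG3457 was at 9.54 and 7.09 against 3.19 and 2.36 CPM (-1.58 ± 0.46). For atms the pellet levels were 82.7 and 58.4 against 26.3 and 18.3 CPM (-1.66 ± 0.33). All 3 estimates were negative in both fractions.

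CG13373 was at 23.6 and 30.0 CPM with siGFP and at 29.5 and 24.4 CPM with siPAF1 in NUN (-0.01 ± 0.28), where its libraries overlap, in contrast to the cytoplasm. CG42259 was at 32.3 and 23.96 against 18.5 and 15.98 CPM (-0.70 ± 0.39). CG31998 was at 472.1 and 926.9 against 1113 and 1092 CPM (0.66 ± 0.34), so its cyto and NUN estimates have opposite signs. The median NUN difference of the 21 lower genes was -0.79, over those tested there. The difference between the cyto and the NUN change was itself tested: 0 of 7982 genes passed with edgeR (0%), 3 with DESeq2, and 411 had an unadjusted edgeR p under 0.05. The cyto minus NUN value was -2.62 ± 0.59 for CG13373, -2.60 ± 0.56 for atms, -2.33 ± 0.51 for CG3740 and -2.58 ± 0.66 for CG31998, with edgeR adjusted p of 0.421, 0.421, 0.421 and 0.922. For Rab27 it was -0.20 ± 0.72.

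The 22 lower genes with at least 20 counts were compared with all genes in position, span and level. On the X lie 10 of them (45.5%), where 16.8% of the genes tested lie. Their median span from first to last base of the model was 1513 bases, against 2511.5 over all genes tested and 2035.5 over those with at least 20 counts. Their median siGFP level, in CPM not divided by length, was 121, against 22.6 and 52.9 in the same sets. The level entered the choice, through the count minimum and the siGFP libraries being the higher ones, so it is no finding.

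Over the whole X the 961 genes tested had a median of 0.00, 5 passed, and 75 were lower against 39 higher at an unadjusted p under 0.05. In the first 2 Mb of the X, a window chosen after the values were seen, 106 genes had a median of -0.32, 68 were lower, 3 passed, and 19 were lower against 4 higher at an unadjusted p under 0.05. The median there was -0.18 in the double knockdown against siPIWI and -0.11 in NUN. In siPIWI minus siGFP, which shares the siGFP libraries, it was -0.12, against 0.18 over all genes tested. Without the siGFP library OSS_146 the siPAF1 minus siGFP median of this window was -0.22.

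Neighbours of the called genes went both ways, and none passed. CG13373 lies between Exp6 (0.08 ± 0.75) and CG18273 (0.05 ± 0.56), with 395 bases between it and Exp6. Rab27 lies between pck (1.004 ± 0.75) and mei-38 (-0.74 ± 0.44), at 1566 and 163 bases. Next to CG42259, su(w[a]) ended 181 bases before it (-0.64 ± 0.60), and CG14629, 4514 bases after it, was at 60.1 and 75.3 CPM with siGFP and 36.0 and 17.9 CPM with siPAF1 (-1.30 ± 0.48, edgeR adjusted p = 0.394). The gene CG11158 overlaps CG9940 (-1.08 ± 0.75) by 64 bases on the other strand, and the counts used are by strand. Among the lower genes 3 pairs lay within 100 kb of each other, all on the X: O-fut2 and Rab27 with 7451 bases and 3 tested genes between them, CG3021 and CG42259 with 17933 bases and 2 genes, and CG3740 and CG14798 with 23556 bases and 1 gene.

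Chromosome 4, a small and mostly heterochromatic chromosome, was also singled out after the values were seen. Of its 48 tested genes 40 were lower with siPAF1, with a median of -0.42 against 0.04 over all genes. None passed with edgeR, while 7 were lower and 0 higher at an unadjusted p under 0.05. The median was -0.49 in the double knockdown against siPIWI, with 40 of 48 lower, and in NUN 0.34, with 34 of 48 higher. The cyto change was below the NUN change in 41 of 48 genes, by a median of -0.69. Leaving out each cyto library of the comparison in turn gave medians from -0.53 to -0.26. Of its genes, ci (68336 to 76925), the transcription factor of Hedgehog signalling, was at 124.4 and 129.9 CPM with siGFP and 88.4 and 111.3 CPM with siPAF1 (-0.35 ± 0.41). With siPIWI it was at 177.3 and 192.2 CPM, against 71.8 and 109.7 CPM in the double knockdown (-1.04). In both backgrounds the ci levels with the Paf1 siRNA lay below those without it.

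The differences moved with the read level of a gene. With the genes cut into 10 equal bins by their mean level over the 8 cyto libraries, the median of siPAF1 minus siGFP went from 0.46 in the lowest bin to -0.38 in the highest. In the highest bin 70 genes were lower and 15 higher at an unadjusted p under 0.05, and in the lowest bin 6 and 29. The median of siPIWI minus siGFP, which shares the siGFP libraries, went the same way and further, from 1.03 to -0.70. The trend with level is thus not particular to siPAF1. The double knockdown against siPIWI went the other way, from -0.25 to 0.22, and NUN was near 0 at both ends, at 0.06 and -0.003. Without the siGFP library OSS_146 the ends were 0.34 and -0.11, and without the siGFP library OSS_147 they were 0.63 and -0.57. By gene span, the median was -0.26 in the bin of the shortest genes, 0.19 at its highest, in the ninth, and 0.04 in the bin of the longest. The double knockdown against siPIWI went from 0.05 in the shortest to -0.35 in the longest, and siPIWI minus siGFP from -0.29 to 0.86. The lists below hold genes of very different read levels, and the part of the level in their medians was not tested.

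**Figure D3:**
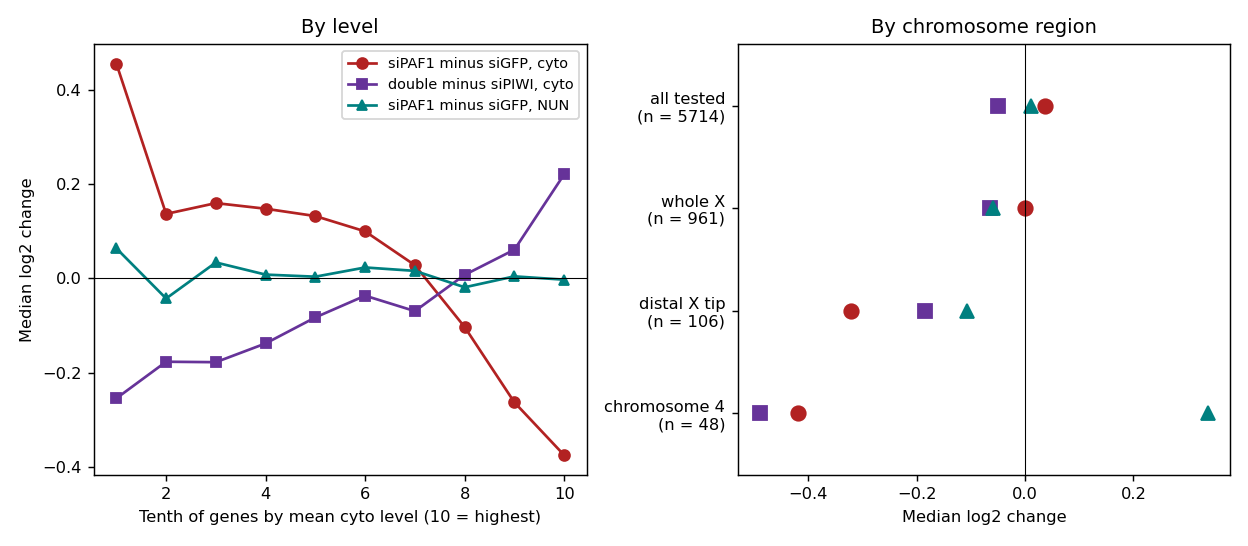
Median log2 change in 10 bins of genes by mean cyto level (left; 10 is the highest) and by chromosome region (right; the distal X tip is its first 2 Mb), for siPAF1 minus siGFP in cyto, the double knockdown minus siPIWI in cyto and siPAF1 minus siGFP in NUN. The siPAF1 median goes from 0.46 to -0.38 with level, and chromosome 4 has medians of -0.42 and -0.49 in cyto and 0.34 in NUN.

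Gene lists were described by counts and medians beside those of all genes, of which 52% were positive with a median of 0.04. At an unadjusted edgeR p under 0.05, 5.76% of all genes tested were lower and 3.92% higher. The list counts at that p below are to be read beside these shares, and no list was tested against them. Of all their members atms was the one past the threshold with edgeR. The DESeq2 Wald test called 3, atms, the glycolytic enzyme gene Tpi (adjusted p = 0.0478) and CG3621 of the respiratory chain list (adjusted p = 0.0437).

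In the transcription machinery that the Paf1 complex works with, differences went both ways. Of 34 genes of RNA polymerase II and elongation 14 were positive and 20 negative (median -0.07), with 1 higher and 1 lower at an unadjusted p under 0.05. Of 24 cleavage, polyadenylation and termination genes 11 were positive and 13 negative (median -0.17). For mRNA export and the nuclear pore the split was 17 and 15 of 32 (median 0.02), and for mRNA decay 11 and 24 of 35 (median -0.17, and -0.31 in the double knockdown against siPIWI). The piRNA pathway had 19 positive and 14 negative of 33 genes (median 0.23, and -0.25 in the double knockdown against siPIWI), and the siRNA and miRNA pathways 8 and 7 of 15 (median 0.19). With a library left out these medians ranged from -0.21 to -0.04 for elongation, -0.19 to -0.06 for cleavage, -0.10 to 0.07 for export, -0.19 to -0.07 for decay, 0.08 to 0.26 for the piRNA pathway and 0.09 to 0.28 for the siRNA and miRNA pathways.

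Of 40 translation factors 31 were positive and 9 negative, with a median of 0.37, of 0.26 in the double knockdown against siPIWI and of 0.05 in NUN. Ef1alpha48D, the elongation factor that delivers aminoacyl-tRNAs, was at 2279 and 3402 CPM with siGFP and 4785 and 7317 CPM with siPAF1 (1.09 ± 0.48, edgeR adjusted p = 0.457). Ef2b, the translocation factor, was at 3396 and 4562 against 6398 and 7659 CPM (0.82 ± 0.47, edgeR adjusted p = 0.611). Both siPAF1 libraries lay above both siGFP libraries in these genes. In siPIWI minus siGFP, Ef1alpha48D stood at 0.50 ± 0.47 and Ef2b at 0.21 ± 0.47. The list median was 0.27 to 0.55 with a library left out.

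Of 87 cytoplasmic ribosomal protein genes 37 were positive and 50 negative (median -0.20). RpLP2, of the ribosomal stalk, was at 80050 and 43310 CPM with siGFP and 41620 and 31200 CPM with siPAF1 (-0.76 ± 0.53), and RpL24 at 61760 and 46500 against 35900 and 34630 CPM (-0.62 ± 0.53). Without the siGFP library OSS_146 the list median was 0.01, and it was 0.22 in the double knockdown against siPIWI. Of 72 mitochondrial ribosomal protein genes 21 were positive and 51 negative (median -0.40), with 8 lower and 0 higher at an unadjusted p under 0.05. Among them mRpS21 was at 4922 and 2288 against 1684 and 1475 CPM (-1.19 ± 0.53) and mRpL27 at 2826 and 1532 against 1492 and 947.2 CPM (-0.84 ± 0.47). Without the siGFP library OSS_146 this median was -0.23, and in the double knockdown against siPIWI it was -0.003. In siPIWI minus siGFP, RpLP2 stood at -1.02, RpL24 at -0.83, mRpS21 at -0.76 and mRpL27 at -0.87.

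Of 25 heat shock and protein folding genes 18 were positive and 7 negative, the highest median of the lists with at least 10 tested genes at 0.57, with 4 higher and 0 lower at an unadjusted p under 0.05. In 15 of the 25 both siPAF1 libraries lay above both siGFP libraries, against 26.5% of all genes. The median was 0.50 to 0.59 with a library left out, 0.33 in the double knockdown against siPIWI and 0.19 in NUN. The chaperone genes with the highest CPM had negative estimates: Hsc70-4 was at 10110 and 6994 CPM with siGFP and 7382 and 8375 CPM with siPAF1 (-0.12 ± 0.48), and the mitochondrial chaperonin Hsp60 at 7774 and 3747 against 4423 and 3062 CPM (-0.62 ± 0.50). For Hsc70-4 the sign turned under 3 of the alternatives. The proteasome had 18 positive and 15 negative of 33 genes (median 0.06, from -0.10 to 0.13 with a library left out), and its subunit Prosbeta5 was at 8590 and 3728 against 3450 and 2333 CPM (-1.09 ± 0.51). In siPIWI minus siGFP, Hsc70-4 stood at -0.67 ± 0.48, Hsp60 at -1.28 ± 0.50 and Prosbeta5 at -1.30 ± 0.52.

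Glycolysis had the lowest median of these lists, -0.58 over 12 genes with 4 positive and 8 negative, and 3 were lower at an unadjusted p under 0.05. Tpi, triosephosphate isomerase, was at 261.0 and 87.0 CPM with siGFP and 54.3 and 45.7 CPM with siPAF1 (-1.79 ± 0.49, edgeR adjusted p = 0.187). Pgk, phosphoglycerate kinase, was at 1485 and 533.9 against 504.2 and 270.4 CPM (-1.38 ± 0.54), and the enolase gene Eno at 835.0 and 379.3 against 339.9 and 256.4 CPM (-1.02 ± 0.47). In all 3 the siGFP library OSS_146 was the highest by far. Without that library the list median was -0.12, and without the siGFP library OSS_147 it was -1.05. In siPIWI minus siGFP, Pgk stood at -1.39 ± 0.54 and Eno at -1.20 ± 0.47, so their decrease was not particular to siPAF1. In the double knockdown against siPIWI the median was -0.31 and in NUN -0.44. Oxidative phosphorylation had 32 positive and 35 negative of 67 genes (median -0.04, from -0.35 to 0.17 with a library left out). In it CG3621 was at 3643 and 1451 CPM with siGFP and 1013 and 579.5 CPM with siPAF1 (-1.68 ± 0.52, edgeR adjusted p = 0.285).

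Of 58 genes of the cell cycle and DNA replication 18 were positive and 40 negative (median -0.25), with 5 lower and 0 higher at an unadjusted p under 0.05. Over all genes tested 5.76% were lower at that p. Mcm3, of the replicative helicase, was at 535.7 and 623.6 CPM with siGFP and 291.3 and 234.6 CPM with siPAF1 (-1.14 ± 0.43, edgeR adjusted p = 0.394). Here the siGFP libraries lay close together. In siPIWI minus siGFP, Mcm3 stood at -1.03 ± 0.43. The list median was -0.31 to -0.15 with a library left out, -0.26 in the double knockdown against siPIWI and -0.24 in NUN. The DNA damage and stress list, which holds mus308, had 24 positive and 12 negative of 36 genes (median 0.22, and -0.25 in the double knockdown against siPIWI). Its median was 0.42 without the siGFP library OSS_147, 0.12 without the siGFP library OSS_146, 0.36 without the siPAF1 library OSS_146 and 0.04 without the siPAF1 library OSS_147.

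Of 39 genes of actin, adhesion and extracellular matrix 25 were positive and 14 negative (median 0.30), with 8 higher and 1 lower at an unadjusted p under 0.05. The median was 0.20 to 0.40 with a library left out, and 0.03 in the double knockdown against siPIWI. The immune list had 15 positive and 6 negative of 21 genes (median 0.21, from 0.04 without the siGFP library OSS_146 to 0.47 without the siPAF1 library OSS_146). The Wnt, Notch and Hedgehog list had 11 and 11 of 22 (median -0.01, from -0.22 to 0.04 with a library left out), and the ecdysone list 4 and 7 of 11 (median -0.45, from -0.49 to -0.27). Of 116 histone genes 111 had no count in the 4 libraries, and of 23 aminoacyl-tRNA synthetase genes 18 had none, so neither list is described further.

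**Figure D4:**
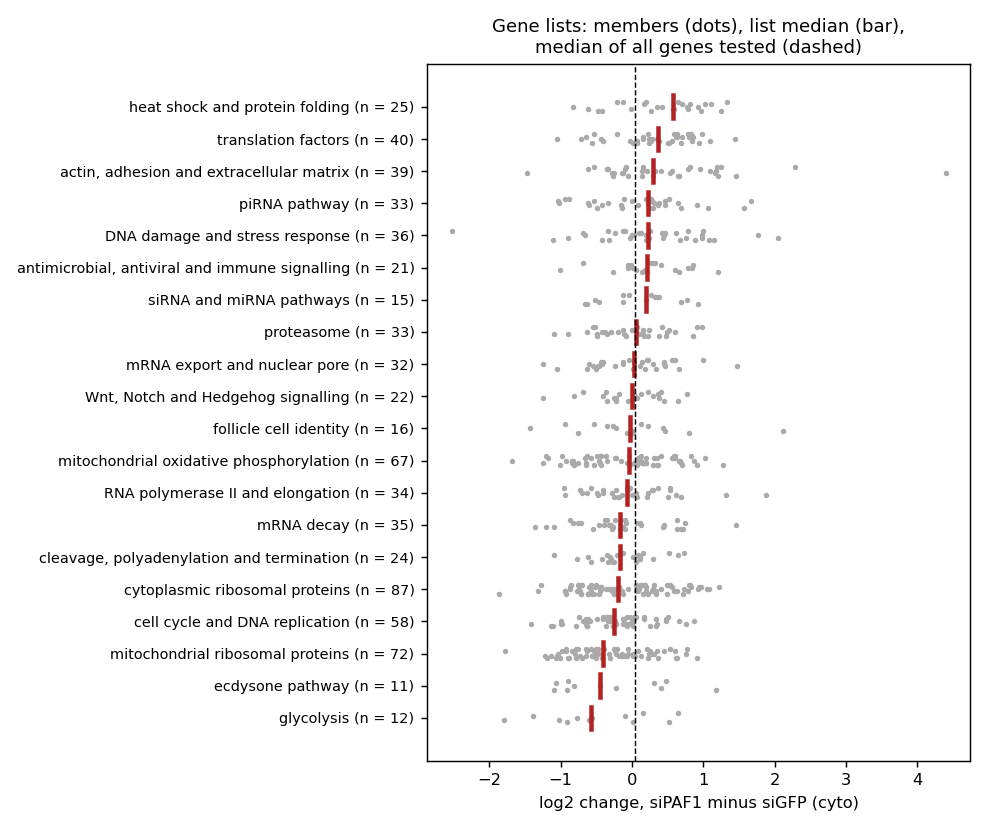
Log2 change of siPAF1 minus siGFP in cyto for the tested members of each list (grey dots, with the number of genes), the list median (red bar) and the median of all genes tested (dashed line). Heat shock and protein folding has the highest median, 0.57, and glycolysis the lowest, -0.58, and members of every list lie on both sides of 0.

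The markers of the labelled cell type were present. On the TMM-scaled library sizes, ovarian soma markers summed to 681.9 and 575.5 CPM with siGFP and 509.9 and 535.7 CPM with siPAF1, and 6 of 8 were tested. On unscaled library totals the same sums were 440.8 and 515.5 against 486.7 and 570.0 CPM, so the direction turned with the scaling. Of the 6 tested, 3 were positive and 3 negative, with a median of 0.01 and values from -0.93 to 2.11. The lowest was tj, the transcription factor of ovarian somatic cells. It was at 207.7 and 128.6 CPM with siGFP and 108.7 and 66.6 CPM with siPAF1 (-0.93 ± 0.52). Of the 16 tested genes of follicle cell identity 7 were positive and 9 negative (median -0.03). On the scaled sizes germline markers summed to 62.9 and 62.4 against 67.0 and 75.5 CPM (2 of 11 tested, 4 with no count) and haemocyte markers to 58.8 and 45.5 against 41.1 and 39.8 CPM (3 of 12 tested, 4 with no count). Neuron markers summed to 117.5 and 62.4 against 36.01 and 29.8 CPM (1 of 12 tested, 5 with no count), and muscle markers to 1444 and 1398 against 1157 and 786.2 CPM (3 of 13 tested, 4 with no count). Most of the neuron sum was the gene Cha, at 108.0 and 59.8 CPM with siGFP and 32.85 and 23.85 CPM with siPAF1. Its difference was -1.55 ± 0.44, and 0.22 ± 0.43 in the double knockdown against siPIWI. Most of the muscle sum was Mlc2, at 1382 and 1321 against 1092 and 754.4 CPM. Of the 3 muscle markers tested 2 were negative and 1 positive, Act57B at 4.40 on few counts. Of the 3 haemocyte markers tested 2 were positive and 1 negative (median 0.18). Fat body markers stayed at 1.30 to 5.96 CPM, with 7 of 10 at 0. Of these sums that of the neuron markers was lower with siPAF1 on unscaled totals too, at 76.0 and 55.9 against 34.4 and 31.7 CPM. For haemocyte and muscle markers the groups overlapped on unscaled totals. The part of these marker differences in the results was not tested.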

How the data were processed

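RNA of OSS cells was sequenced in 16 libraries, 2 for each of 8 groups, of which 8 are cyto and 8 NUN. Per the file headers, the authors deposited raw read counts of 24995 transcript models for the CDS, both untranslated regions and the locus, by strand, from unique and from all alignments. Bowtie is named, without a version, in the submitters' processing notes, and the genome build is not given in the sources used here. RPM values that the authors also deposited were not used. Coordinates and lengths in bases are as deposited. The deposited files hold 0 columns of other samples.

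Each gene was measured by its unique reads on the CDS, counted on its own strand (95.4% of CDS counts for plus-strand and 96.0% for minus-strand genes), for the model of longest coding length. This gave 14229 genes, 13892 of them with a CDS. A read can count in several overlapping models. Untranslated and locus windows differ in length between libraries and were used only where stated. Depth per library is given with the results. Without molecular identifiers, reads from PCR copies are counted as if separate.

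Tests used edgeR 4.0.16 in R 4.3.3 with filterByExpr, TMM and robust quasi-likelihood F tests on 1 coefficient for each group, in 1 fit of the 8 cyto libraries, 1 of the 8 NUN libraries and 1 of all 16 for the difference between fractions. P-values were adjusted by Benjamini-Hochberg over all genes of a comparison, with a threshold of 0.05. The biological coefficient of variation was 32% in the cyto fit, 21.2% in the NUN fit and 25.1% in the fit of all libraries. The scripts were tested on simulated data. CPM are on TMM-scaled library sizes. Alternatives were size factors of DESeq2 1.42.0, its Wald test, other count filters, other regions, strands and alignments, fewer libraries, a replicate block, and, chosen after seeing the data, an average over both backgrounds and the share of pellet-enriched counts as a covariate.

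The naming rule took both siRNA targets, then the called genes averaging 20 counts or more over the 4 libraries without overlap between groups, then those of lowest p up to 24, and, from each list, called members or the 2 with the highest level, of which some are printed. CG3457, CG11158, the neighbours, Tpi, CG3621, Act57B, CG16739, unc-13, CG16953, lap and the other Paf1 complex subunits were added for their role or after their values were seen. Lists were matched by symbol, 10913 directly, 3226 through an older name and 90 not at all. The comparison, its members and the lists were chosen with earlier results of these data known. No set test was run.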

Additional observations from a re-analysis of the deposited data

Results flagged for a closer look

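Counts outside the coding sequence stood out for 2 genes, which the comparisons on the CDS do not use. In the 5′ window of CG16953 (3R, 16407492 to 16411536) the siPAF1 libraries had 625 and 399 counts, against 1 and 0 with siGFP. The siPIWI libraries had 6 and 0 counts and the double knockdown libraries 811 and 301. The deposited window was 392 bases long with siGFP and siPIWI, 1956 with siPAF1, and 2056 and 1956 in the double knockdown. On the CDS of CG16953 the control libraries had 7 and 7 counts and the knockdown libraries 34 and 28 (1.38 ± 0.58, edgeR adjusted p = 0.456).

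In the 3′ window of lap the siPAF1 libraries had 101 and 34 counts, against 2 and 2 with siGFP, 5 and 3 with siPIWI and 83 and 26 in the double knockdown. The window was 356 bases long with siGFP and siPIWI, 1168 and 668 with siPAF1, and 1268 and 668 in the double knockdown. In both genes all 4 libraries with the Paf1 siRNA had the longer window and the more counts, and more reads and a longer window cannot be told apart here. Counted over the whole locus window, both CG16953 and lap passed as higher in siPAF1 against siGFP with edgeR. No outlier test applies to groups of 2 libraries.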

How the results depend on the processing

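The decrease of atms passed under all 16 alternatives, at -4.80 to -3.71 (leaving out libraries, -4.80 to -3.97). The count of 6 genes was 6 with DESeq2 size factors, with the strict filter and with the 20 genes of highest count left out of library sizes, and 9 with both strands (1 higher). It was 38 with DESeq2 (1 of them higher), 42 with no filter (7 higher), 159 with only the groups compared (41 higher), 14 with all alignments (5 higher), 11 averaged over both backgrounds (1 higher) and 207 with the pellet-enriched share as covariate (58 higher). On the whole locus window it was 3, of which atms alone was among the 6, and CG16953 and lap were higher. Leaving out a library gave 1 to 9. With the replicate block it was 76 (10 higher, 66 lower). The library numbers are not shown to pair the samples: same-numbered siGFP and siPAF1 libraries deviated together with a correlation of 0.255, and other cyto pairs with -0.165 to 0.569.

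CG42259, Rab27 and CG13373 passed in 12 of 16 alternatives, CG3457 in 11, CG11158 in 9 and CG1637 in 8. The double knockdown against siPIWI, with 1 call, gave 2 with no filter, 0 with only the groups compared, 2 on the locus window and 0 to 52 with a library left out (52 without siPIWI OSS_147, 3 without siPIWI OSS_146, 0 without either double knockdown library). siPAF1 against siPIWI, with 1, gave 18, 0 and 3 in these settings, 20 with the replicate block and 0 to 439 with a library left out (439 without siPIWI OSS_147, 14 without siPIWI OSS_146, 0 without either siPAF1 library). The cyto change against the NUN change, with 0, gave 3 with DESeq2, 2 with no filter, 4 with only the groups compared and 0 with any library left out. The causes were not tested.

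Of 704 values over 44 named genes other than atms, 559 kept side and direction, 24 lost and 110 gained a call, and 11 turned sign, all near 0. For piwi they were 0.0076 with no filter, 0.043 with only the groups compared, 0.021 with the replicate block, 0.0094 with both strands, 0.050 averaged over both backgrounds, and -0.26 to 0.21 with a library left out (0.21 without siPAF1 OSS_146 and 0.032 without siGFP OSS_147). For CG2469 it was 0.068 on the locus window. For Hsc70-4 they were 0.045 on the locus window, -0.37 to 0.16 with a library left out (0.16 without siGFP OSS_146) and 0.15 averaged over both backgrounds.

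Limits: with 2 libraries a group and genes at a median SE of 0.53, the smallest log2 difference called was -2.61 (Rab27), and a gene not called is not shown to be unchanged.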

Other observations

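Some genes with few counts had large differences without passing. Act57B, a muscle actin (2R, 16831533 to 16833945), had 0 and 1 counts with siGFP, 23 and 18 with siPAF1, 5 and 5 with siPIWI and 27 and 7 in the double knockdown (edgeR adjusted p = 0.12). CG16739 (2R, 16229533 to 16230279) had 19 and 10 counts with siPIWI, 0 and 2 in the double knockdown, 0 and 2 with siGFP and 0 and 0 with siPAF1. On chromosome 4, unc-13, a factor of vesicle priming (891180 to 914179), was at 31.4 and 33.8 CPM with siGFP and 11.4 and 12.9 CPM with siPAF1 (-1.43 ± 0.49, edgeR adjusted p = 0.366), and at 68.2 and 35.2 CPM with siPIWI against 13.8 and 13.3 CPM in the double knockdown (-1.95 ± 0.47). Act57B, CG16739 and unc-13 were chosen after their values were seen.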
